A study of Caenorhabditis elegans with 2 samples.

Results

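The 10 genes described here, lin-44, egl-20, lin-17, mig-1, cam-1, vang-1, lit-1, bar-1, sys-1 and pop-1, encode Wnt ligands, receptors and intracellular components of Wnt and planar polarity signalling in the nematode Caenorhabditis elegans. They were looked up in a chromatin immunoprecipitation sequencing (ChIP-seq) study of the transcription factor CEH-6. The genes were named with earlier results of these data known, so their shares below are not those of genes picked blind. Every region whose summit lay between 5000 bp upstream of the gene and its end was taken. This gave 81 of the 30000 regions called on the pooled reads, 66 regions of replicate 1 and 86 regions of replicate 2. The 10 genes are among 19973 nuclear protein-coding genes of the annotation.

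The study holds 1 group of samples, late embryos, male and female pooled, labelled as 3.3 hours old with no starting point stated, in 2 biological replicates (n = 2). The strain is OP748, which carries the transgene wgIs748 with ceh-6 fused to TY1, EGFP and 3xFLAG, plus unc-119(+), in an unc-119 (ed3) mutant, with VC2010 also named in the genotype. The tagged protein is a transgene product, and both replicates come from this 1 strain. The samples' description names an antibody against GFP for the immunoprecipitation from whole embryos, while the antibody label reads ceh-6. There is no second genotype, stage or treatment, so no test between groups of samples was possible and all values below are descriptions. Each region has a signal value given by the authors' peak caller relative to a control. The scale of this signal is not stated and the read depth is unknown, so signals were only ranked within a list, with rank 1 the highest of 30000. The 741 peaks that passed the authors' irreproducible discovery rate procedure, called IDR regions below, were the 741 pooled regions of highest signal. The IDR set is therefore a threshold on pooled signal, at a value of 106.

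Wnt ligands are secreted proteins that bind Frizzled and Ror receptors on neighbouring cells. In one branch of the pathway the beta-catenin BAR-1 acts as co-activator of the TCF factor POP-1. In another, which sets the fates of sister cells after many divisions in the worm embryo, the Nemo-like kinase LIT-1 promotes export of POP-1 from one nucleus while the divergent beta-catenin SYS-1 serves as its co-activator. Planar polarity proteins such as VANG-1 orient cells within a tissue. CEH-6 is a homeodomain protein of the POU class, known in the worm from the excretory cell, rectal epithelial cells and some neurons, and POU factors as a class bind an octamer sequence. Binding of CEH-6 to these genes in any one cell type cannot be read from whole embryos.

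CEH-6 signal at the level of the IDR set lay at 4 of the 10 genes: sys-1, vang-1, lit-1 and lin-17. Their windows held 5 IDR regions, 2 of them in lit-1. Among all 19973 nuclear protein-coding genes, 5.67% had an IDR region in a window drawn the same way. Long windows hold more regions, and the members' windows had a median of 11.4 kb against 7.03 kb for all genes. Among the 5839 genes whose windows were no shorter and no longer than those of the 10 genes, the share was 8.91%. The window rule counts a region for every gene it falls upstream of. With the stricter rule that the nearest annotated start be the gene's own, lin-17, vang-1 and lit-1 remained, 3 of 10, against 3.10% of all genes. With no upstream part in the window, lit-1 and lin-17 remained, 2 of 10, against 1.28% of all genes. For neither of these rules was a share among genes of like length computed. The genes lit-1 and lin-17 are 22414 and 10667 bp long, with 7 and 5 annotated transcripts, so both contrasts with all genes are not matched for length or number of starts. The region counted for sys-1 lies closer to a histone gene, as described below.

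The sequences around the summits of 7 regions are shown because they carry the regions described below: the vang-1 promoter region, both lit-1 IDR regions, the strongest cam-1 region just below the IDR limit, a lit-1 region upstream of an internal transcript start with its CA repeat in capitals, the single bar-1 region, and a weak lit-1 region with the octamer in capitals. In the cam-1 sequence the capitals mark a GAGA repeat. Each runs 100 bp to either side of the summit, 201 bases in all, on the plus strand of ce11 (WBcel235), from the RefSeq copy of that assembly.
vang-1 promoter chrX:2885446-2885646: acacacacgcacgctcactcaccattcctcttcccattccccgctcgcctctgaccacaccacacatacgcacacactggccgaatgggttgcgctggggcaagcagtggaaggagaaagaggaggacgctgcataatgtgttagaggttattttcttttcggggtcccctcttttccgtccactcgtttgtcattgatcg
lit-1 intron, rank 691 chrIII:13721223-13721423: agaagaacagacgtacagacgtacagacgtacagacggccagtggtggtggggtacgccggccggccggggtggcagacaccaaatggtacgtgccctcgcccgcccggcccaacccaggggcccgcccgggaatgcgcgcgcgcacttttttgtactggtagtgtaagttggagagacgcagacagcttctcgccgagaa
lit-1 intron, rank 740 chrIII:13720453-13720653: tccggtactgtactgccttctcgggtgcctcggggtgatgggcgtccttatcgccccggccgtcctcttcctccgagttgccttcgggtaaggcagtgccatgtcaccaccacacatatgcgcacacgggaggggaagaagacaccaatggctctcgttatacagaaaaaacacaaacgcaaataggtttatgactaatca
cam-1 intron chrII:9308880-9309080: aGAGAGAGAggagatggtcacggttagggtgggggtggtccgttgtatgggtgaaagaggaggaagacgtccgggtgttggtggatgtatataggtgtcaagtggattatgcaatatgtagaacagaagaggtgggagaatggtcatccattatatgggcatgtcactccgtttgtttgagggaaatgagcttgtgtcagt
lit-1 intron, rank 1012 chrIII:13717657-13717857: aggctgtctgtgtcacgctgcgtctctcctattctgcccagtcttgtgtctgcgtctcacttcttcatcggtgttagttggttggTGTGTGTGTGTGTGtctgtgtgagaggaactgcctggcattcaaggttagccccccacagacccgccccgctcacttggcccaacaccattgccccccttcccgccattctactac
bar-1 promoter chrX:7170939-7171139: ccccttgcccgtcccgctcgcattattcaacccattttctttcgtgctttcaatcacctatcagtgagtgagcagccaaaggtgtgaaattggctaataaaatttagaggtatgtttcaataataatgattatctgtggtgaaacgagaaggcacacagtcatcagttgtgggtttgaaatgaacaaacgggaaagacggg
lit-1 octamer region chrIII:13713329-13713529: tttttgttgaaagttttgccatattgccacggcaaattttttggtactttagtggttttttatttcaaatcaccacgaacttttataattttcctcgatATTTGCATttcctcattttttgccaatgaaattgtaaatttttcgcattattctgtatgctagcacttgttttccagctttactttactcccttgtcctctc

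**Figure D1:**
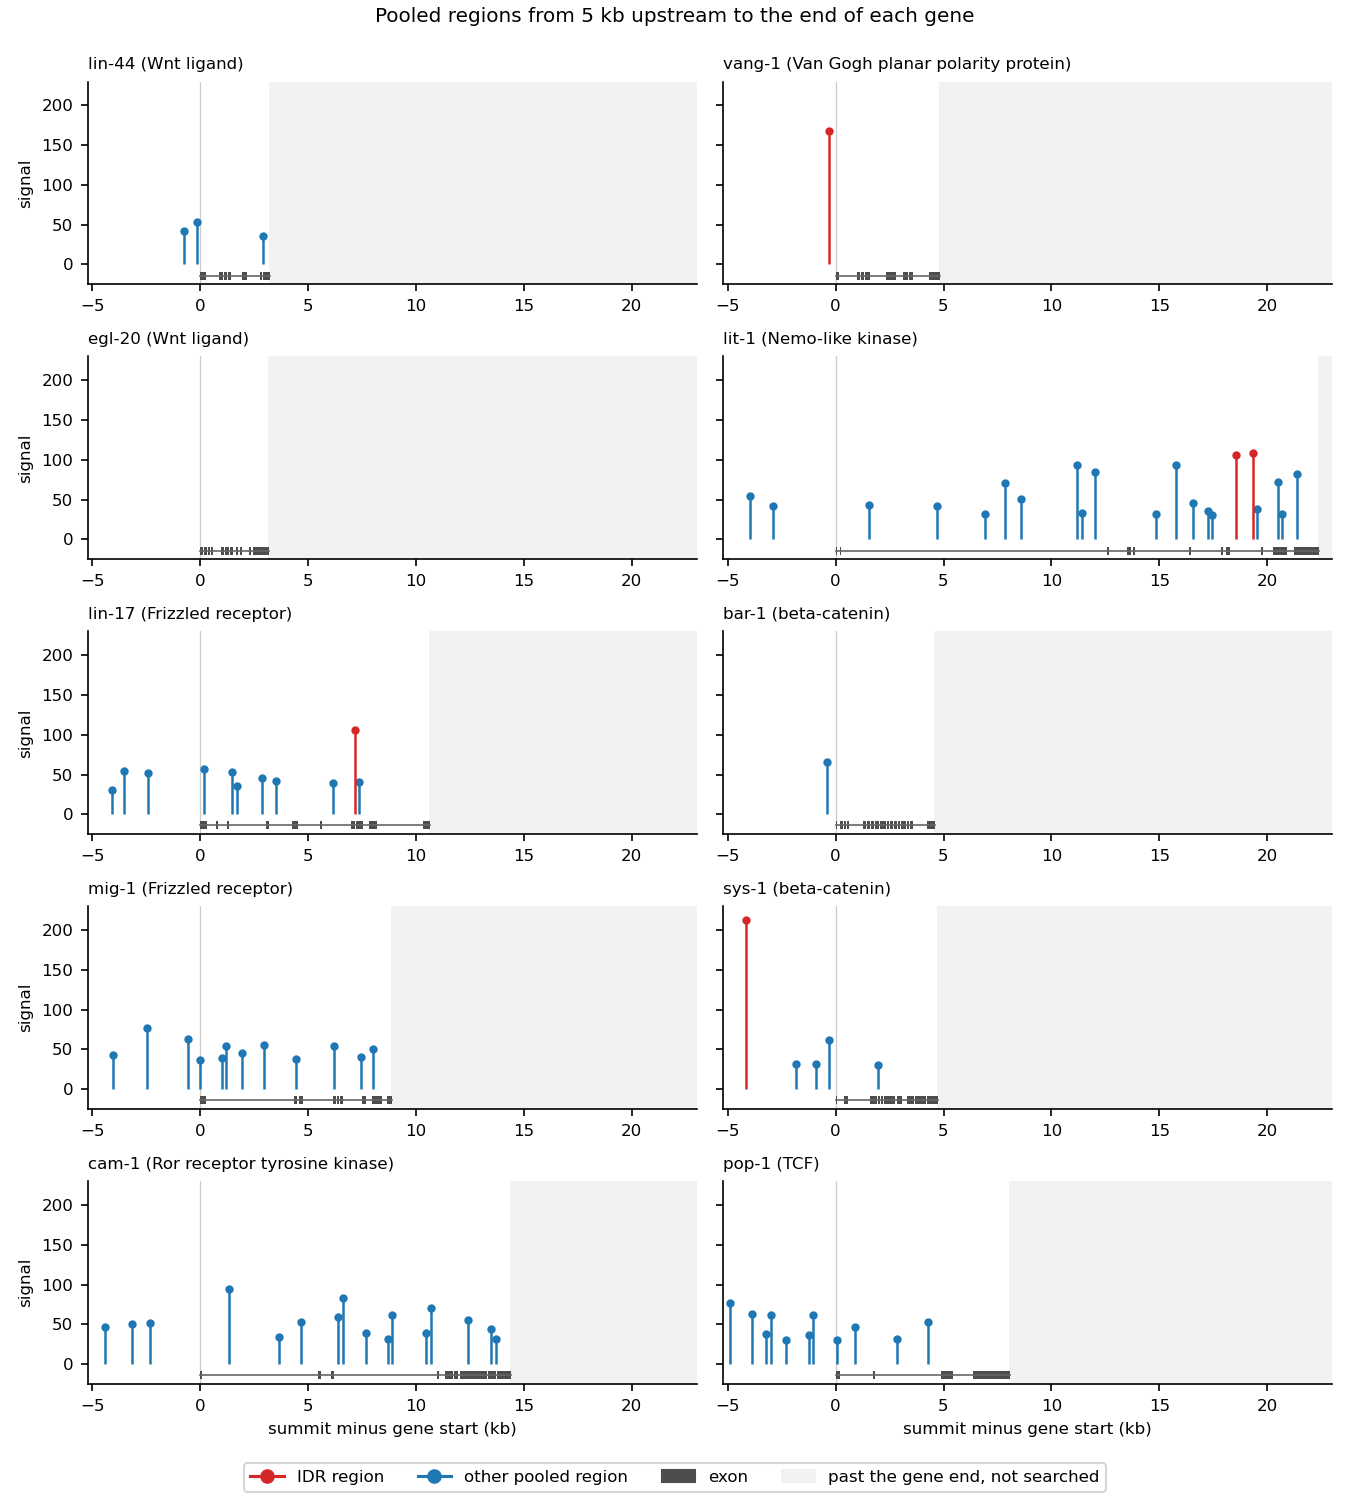
Signal of the pooled regions (vertical axis, the authors' caller's signal, no stated unit) against the distance of the summit from the gene start in kb, for each of the 10 genes drawn in its own direction of transcription. Red marks the 5 IDR regions. The gene egl-20 has no region, vang-1 and bar-1 have 1 each in the promoter, and lit-1 has 21 spread along its window.

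The Wnt ligand genes had the weakest best ranks of the set in the pooled list and in replicate 2, while in replicate 1 the weakest was bar-1. At lin-44, which encodes a Wnt that orients cells in the tail, 3 pooled regions were found. The strongest (chromosome I, 4125720 to 4126129) had a summit at -131 bp from the gene start, where negative values lie upstream, and a signal of 54.0 at rank 6490. Replicate 2 covered it with a signal of 43.9 at rank 2871, and replicate 1 had no region over it. Of all protein-coding genes, 34.8% had a region as strong or stronger in their window. The other 2 regions, at -759 bp and in intron 6, were covered by both replicates at ranks between 12155 and 27289. The replicates thus both had regions at lin-44, but only replicate 2 had one at the strongest pooled summit.

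At egl-20, the ligand that guides migrating neuroblasts along the body axis, no pooled region was found. The gene spans chromosome IV, 9812357 to 9815532, on the minus strand. Replicate 1 had 1 region at -2092 bp with a signal of 18.3 and rank 18028, and replicate 2 had 1 at -810 bp with a signal of 24.7 and rank 17268. Neither region was covered by the other replicate. A pooled region was present in the window of 78.8% of all protein-coding genes, and egl-20 was the 1 gene of the 10 without one. The chromosome around it was sparse too: the 100 kb on either side held 1.70 regions per 10 kb, against 2.99 over the whole genome.

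Of the receptor genes, lin-17 reached the IDR set and cam-1 and mig-1 did not. The Frizzled receptor LIN-17 is needed for asymmetric divisions of tail and vulval cells. Its IDR region (chromosome I, 2713841 to 2714250) had its summit at 7163 bp inside the gene, in coding exon 7. The signal was 106 at rank 733 in the pooled list, 42.1 at rank 1064 in replicate 1 and 61.6 at rank 906 in replicate 2. The replicate summits lay 14 bp and -5 bp from the pooled one. In neither replicate was the region among the first 741. A coding exon was an uncommon place for such a region: 16 of the 718 nuclear IDR regions (2.23%) had their summit in one. The other 10 regions of lin-17 ranked from 5294 to 26759, and together with the IDR region 6 of 11 were covered by both replicates.

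The Ror receptor tyrosine kinase gene cam-1, with functions in cell migration and axon outgrowth, had 16 pooled regions. Of these, 3 lay upstream and 13 within its 14390 bp. The strongest (II, 9308775 to 9309184), in intron 1 at 1324 bp, had a signal of 95 at rank 978, just outside the IDR set. It had a signal of 31.5 at rank 3206 in replicate 1 and of 66.9 at rank 733 in replicate 2. Replicate 2 alone would have placed it inside a limit of 741 regions and replicate 1 would not. The next (II, 9303501 to 9303910), in intron 3 at 6598 bp, had a signal of 82.6 at rank 1487, with ranks of 4762 and 1435 in the replicates. Of the 16 regions, 9 were covered by both replicates and 6 by replicate 2 only.

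At mig-1, a second Frizzled gene with a role in neuroblast migration, 12 regions were found and none passed the IDR limit. The strongest (I, 959739 to 960148), at -2488 bp, had a pooled signal of 76.9 at rank 1912. Its signal was 16.7 at rank 21988 in replicate 1 and 61.9 at rank 895 in replicate 2. The replicates therefore gave this site very different places. The best mig-1 region of replicate 1 was another one, in coding exon 8, with a signal of 36.1 at rank 1884, and replicate 2 had no region at its pooled summit.

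The planar polarity gene vang-1, the worm counterpart of Van Gogh, had 1 region in each list, and it was in the promoter. The region (X, 2885341 to 2885750) had its summit at -312 bp. Its signal was 168 at rank 311 in the pooled list, 57.0 at rank 440 in replicate 1 and 118 at rank 244 in replicate 2. It was inside the first 741 regions of both replicates, and the replicate summits differed from the pooled one by 0 and -8 bp. Of all protein-coding genes, 2.51% had a region as strong in their window. The summit also falls within the annotated non-coding RNAs F53B3.10 and F53B3.12. No gene of a tRNA, snoRNA, snRNA or rRNA lay within 100 bp.

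The gene of the Nemo-like kinase, lit-1, is the longest of the 10 at 22414 bp and had 21 pooled regions. Both of its IDR regions lie in intron 8 of the longest transcript model, near the 3' end of the gene. The stronger (III, 13721118 to 13721527), at 19332 bp, had a signal of 109 at rank 691. Its signal was 29.9 at rank 3879 in replicate 1 and 80.5 at rank 472 in replicate 2. The other (III, 13720348 to 13720757), at 18562 bp, had a signal of 106 at rank 740, and ranked 1964 in replicate 1 with 35.8 and 611 in replicate 2 with 71.5. Both were high in replicate 2 and outside the first 741 regions in replicate 1. The second region stands at the very limit of the IDR set.

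Further lit-1 regions lay just outside that set, and 3 of them had their summit within 1000 bp upstream of internal starts of shorter lit-1 transcripts, among the 7 transcripts annotated. A region with a signal of 94.1 and rank 1005 (III, 13712988 to 13713397) had its summit at -852 bp from such a start. A region with 93.9 at rank 1012 lay at -208 bp, and one with 85.0 at rank 1368 at -49 bp. The annotated start of the longest transcript had no region of comparable strength, since the 2 upstream regions ranked 6433 and 13936. In intron 2, which is 12.3 kb long, 8 regions were found. Of the 8 lit-1 regions in the first 3000, 6 lay past the middle of the gene, as did 13 of all 21 lit-1 regions.

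**Figure D2:**
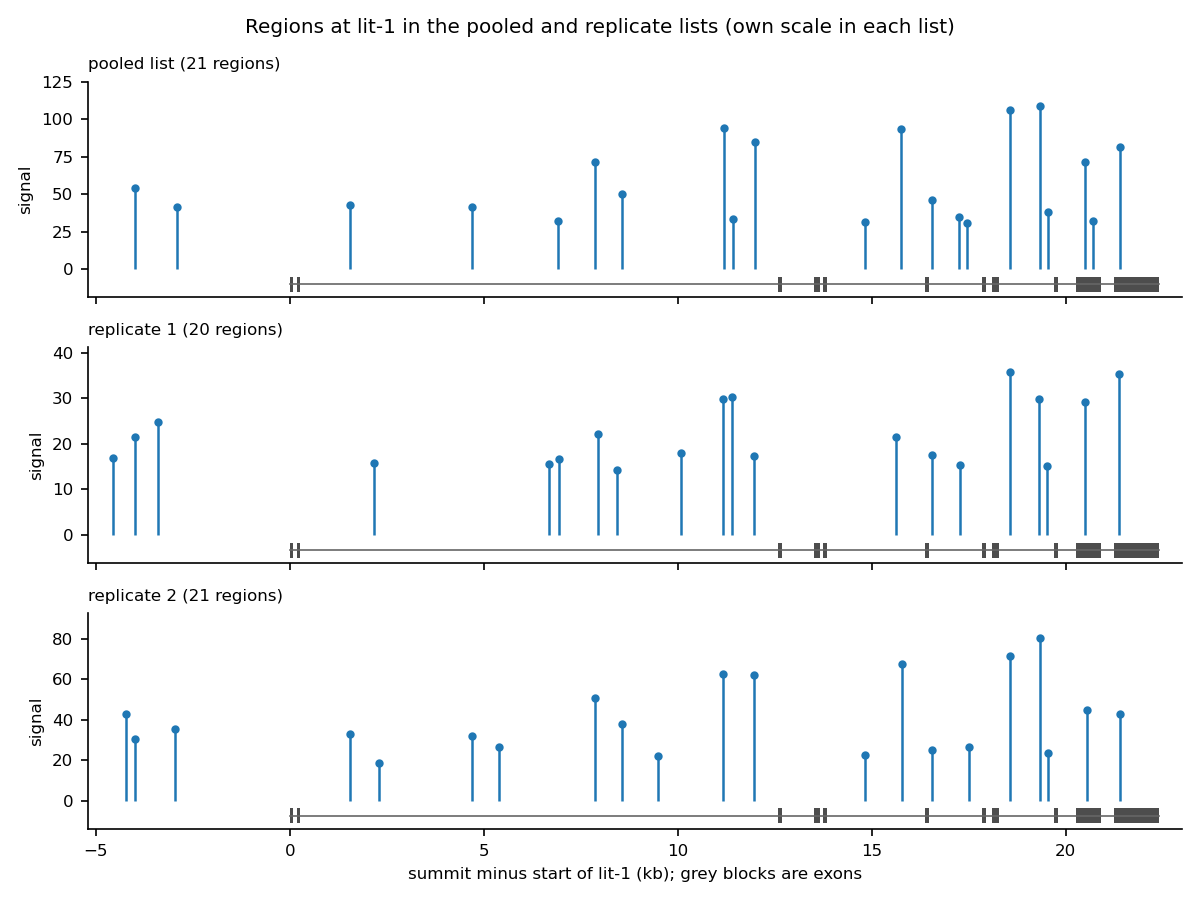
Signal of every region at lit-1 in the pooled list, replicate 1 and replicate 2 (vertical axes, the caller's signal, each list on its own scale) against distance from the gene start in kb, with exons as grey blocks. The 21 pooled, 20 replicate 1 and 21 replicate 2 regions recur at many of the same places, and the strongest replicate 2 region, with a signal of 80.5, is at the pooled maximum in intron 8, while replicate 1 has its maximum at the other IDR region with 35.8.

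The beta-catenin genes differed from each other. At bar-1, the beta-catenin of vulval and neuroblast Wnt responses, 1 pooled region was found (X, 7170834 to 7171243), in the promoter at -414 bp. Its signal was 66.1 at rank 3260 in the pooled list, 17.5 at rank 19854 in replicate 1 and 50.3 at rank 1751 in replicate 2. Both replicates covered the site, with a strong and a weak place in their lists. For sys-1, the strongest region of the whole set (I, 9988889 to 9989035) had a signal of 213 at rank 213, 61.4 at rank 384 in replicate 1 and 154 at rank 157 in replicate 2. It lies at -4153 bp from the sys-1 start and at -184 bp from the start of his-67, a histone gene, which is the nearest start. It is 147 bp wide against 410 bp for the usual pooled region, and carries a GAGA repeat. At the sys-1 promoter itself, at -297 bp, a region had a signal of 61.4 at rank 4223, and replicate 2 alone covered its summit, at rank 5772. Replicate 1 had regions at -15 bp (rank 9777) and -579 bp (rank 24830) that overlapped it without holding its summit.

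At pop-1, the TCF factor at the end of the pathway, 11 regions were found and none was an IDR region. The strongest (I, 2834991 to 2835400), at -4885 bp, had a signal of 77.0 at rank 1905. Replicate 2 had it with 56.5 at rank 1211 and replicate 1 had no region there. The next (I, 2833989 to 2834398), at -3883 bp, had 63.3 at rank 3801 and ranked 2620 in replicate 1 and 5577 in replicate 2. Of the 11 regions, 7 lay upstream of the gene and 4 within it.

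**Figure D3:**
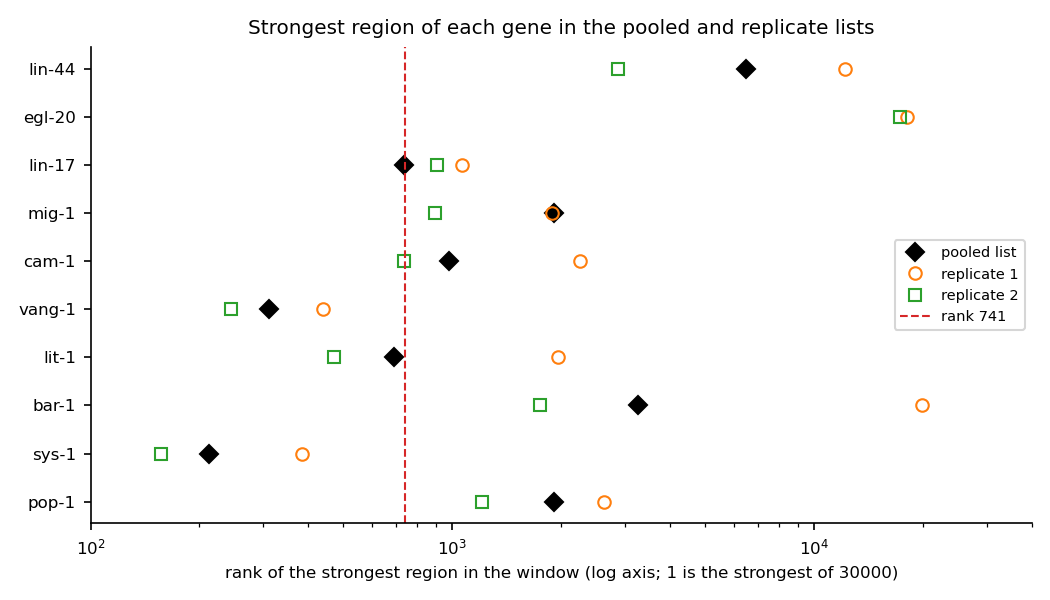
Rank of the strongest region of each gene in the pooled list (black diamonds), replicate 1 (orange circles) and replicate 2 (green squares) on a log axis, with the IDR limit of 741 dashed. Only sys-1 and vang-1 lie left of the line in all 3 lists, and bar-1 shows the widest gap between replicates, from 1751 to 19854.

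Ordered by their strongest pooled region, the genes ran sys-1, vang-1, lit-1, lin-17, cam-1, pop-1, mig-1, bar-1 and lin-44, with egl-20 last for want of a region. This order depends on the window: from 2000 bp upstream, the best ranks of sys-1, pop-1 and mig-1 became 4223, 4029 and 3871, all behind bar-1 at 3260. The differences between neighbours were small against the gap between replicates in the middle of this order. The ranks of pop-1 and mig-1, 1905 and 1912, and those of lit-1 and lin-17, 691 and 733, lay closer together than the ranks of either gene in replicate 1 and replicate 2. The median best rank of the 9 genes with a region was 978, against 5455 for genes of like window length and 7696 for all genes with a region. With 2000 bp upstream, an alternative added after the data were seen, these medians were 3260, 6748 and 9297.

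The count of genes rose steadily as weaker regions were admitted, and from the first 370 to the first 3000 regions its share stood above those of all genes and of genes of like window length. With the 370 strongest regions, 2 genes (sys-1 and vang-1) had one, against 2.97% of all genes and 4.38% of genes of like window length. With the first 1500 regions, 5 genes had one, now with cam-1, against 10.8% and 17.2%. With the first 3000, 7 genes had one, against 19.3% and 29.4%. None of the 10 had one of the 185 strongest. These shares compare chosen genes with all genes, and no test of the difference was made.

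**Figure D4:**
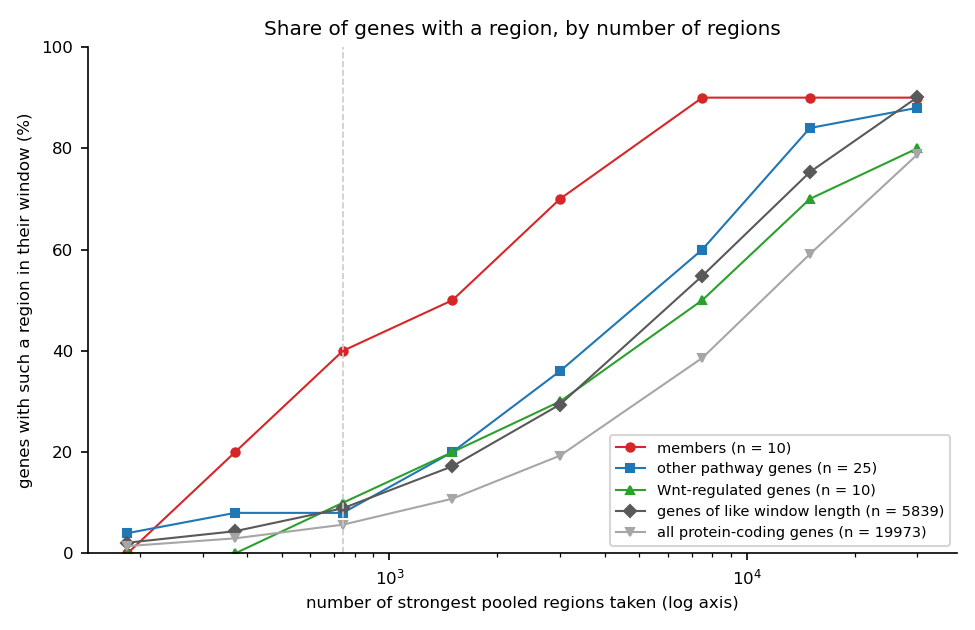
Percent of genes with a region in their window (vertical axis) against the number of strongest pooled regions taken (log axis), for the 10 genes (red), 25 other pathway genes (blue), 10 Wnt-regulated genes (green), 5839 genes of like window length and all 19973 protein-coding genes (greys). At the IDR limit, dashed, the red line is at 40.0% and the others lie between 5.67% and 10%.

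The other genes of the pathway did not stand as high. Of 25 further ligand, secretion, receptor, Dishevelled, destruction complex, beta-catenin, kinase and polarity genes, 2 had an IDR region in their window. The window of mom-1, a gene needed to secrete Wnt, held 2 of them, and the stronger ranked 93 with a signal of 356. It lay within 100 bp of a tRNA gene, at -743 bp from the mom-1 start. Its nearest coding start was that of lev-9, at -637 bp, so it lay in the promoter of both genes. At hmp-2, the beta-catenin of adherens junctions, the region (I, 14737276 to 14737685) had a signal of 175 at rank 291 and lay at -221 bp from K05C4.7. Neither the stronger mom-1 region nor the hmp-2 region had the pathway gene's own start as its nearest. The weaker IDR region of mom-1 is not described here. The median best rank of the 22 genes with a region was 3892. Among 10 genes known to be regulated by Wnt signalling, 1 had an IDR region: egl-18, which encodes a GATA factor of the seam cells, had an intronic region with a signal of 123 at rank 529. The share for each list was near that of genes of like window length.

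The regions of the 10 genes were also dense. They numbered 6.00 per 10 kb of window, against 3.04 over the windows of all protein-coding genes and a median of 3.16 for genes of like window length. The density was 8.64 per 10 kb at mig-1, 8.42 at pop-1, 8.25 at cam-1, 7.66 at lit-1 and 7.02 at lin-17. It was 5.14 at sys-1, 3.63 at lin-44, 1.04 at bar-1, 1.02 at vang-1 and 0 at egl-20. Of the 5 densest genes, cam-1, lit-1 and lin-17 were also among the 5 with the strongest single region, while vang-1 had a strong region and a low density. A comparison chosen after the data were seen set each window beside the 100 kb to either side of it, which for lit-1 end with the chromosome. Those flanks held 5.75 regions per 10 kb at lin-17, 5.52 at lit-1, 5.25 at mig-1 and 4.85 at pop-1, all above the 2.99 of the whole genome. The flanks held 3.50 at lin-44 and sys-1, 3.45 at cam-1, 3.40 at vang-1, 2.85 at bar-1 and 1.70 at egl-20. How far the local density of the chromosome accounts for the counts at the genes was not tested.

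By position, 27 of the 81 regions lay upstream of the gene, 41 in introns and 13 in exons of the longest transcript. For 71 of them the nearest annotated start was the member's own. In annotation classes that include the starts of shorter transcripts, where a promoter reaches 1000 bp upstream of a start, 25.9% lay in promoters, 35.8% in introns, 14.8% in coding exons and 18.5% between genes. Over all nuclear pooled regions these shares were 24.9%, 26.2%, 26.3% and 16.8%. The share in introns stood above that of the list and the share in coding exons below it, with no test of either. The share of window bases in each class was not computed. The windows hold long introns, up to 12.3 kb at lit-1, so these shares may reflect the make-up of the windows, which was not tested. None of the 81 had a small RNA gene (tRNA, snoRNA, snRNA, rRNA or miRNA) within 100 bp of its summit, as did 2.02% of all pooled regions and 35.9% of the IDR regions. Both of these shares include mitochondrial regions. The 5 IDR regions described here therefore do not belong to the small RNA class that makes up a large share of the IDR set. Overlapping regions were common, since joining them left 68 separate stretches.

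Most of the strong regions of these genes were found in both replicates, and most of the weak ones in 1 of them or in neither. A replicate was counted as covering a region where one of its own regions held the pooled summit. Both replicates covered 46 of 81 (56.8%, exact Clopper-Pearson 95% interval 45.3 to 67.8%), against 42.5% of all pooled regions. The interval covers counting error only, and neighbouring regions are not independent. Replicate 2 alone covered 27 (33.3%) and replicate 1 alone 7 (8.64%), against 30.6% and 21.1% of all regions. The 1 region covered by neither lay in exon 4 of sys-1 at rank 28371. Coverage by both fell with rank over the whole list, from 86.1% of regions of rank 1 to 7500 to 7.55% of the 7500 weakest. Among the 37 member regions of rank 1 to 7500, 81.1% were covered by both. These 37 are 45.7% of the member regions, against 25% of the list by construction.

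Replicate 2 gave more of the shared regions the better place, but the genes differed in this. Of the 46 regions covered by both, 31 (67.4%) ranked higher in replicate 2, against 50.6% of all regions covered by both. At lit-1 this was so for 12 of 13 regions and at cam-1 for 7 of 9. It was so for 4 of 6 at both lin-17 and mig-1, for 1 of 7 at pop-1 and for 0 of 2 at lin-44. The 1 shared region each of vang-1, bar-1 and sys-1 also ranked higher in replicate 2. These tallies are not of independent sites, since some overlapping pooled regions take their rank from the same replicate region. The cam-1 regions of rank 4626 and 1487, for example, both have ranks of 4762 and 1435 in the replicates. Spearman's rho between the replicate ranks was 0.285 across the 46 regions and 0.373 across the 12759 of the whole list, as a description across sites that share the same libraries and in some cases the same replicate region. Taken from the other side, 43 of the 66 replicate 1 regions (65.2%) had their summit in a region of replicate 2, and 43 of the 86 replicate 2 regions in one of replicate 1. Over all regions the shares were 42.7% and 41.9%. The pooled list covered 50 of the 66 and 70 of the 86. Among those it left out were a replicate 1 region at mig-1, at -359 bp with a signal of 35.3 at rank 2063, and a replicate 2 region at lit-1, at -4215 bp with 43.0 at rank 3124. Each overlapped a region of the other replicate and a pooled region, of rank 3871 at mig-1 and 6433 at lit-1. None of these overlapping regions held its summit, so the sites are not absent from those lists. Both were picked here for their rank. With the first 741 regions of replicate 1 in place of the IDR set, sys-1 and vang-1 had a region, 2 of the 4 genes. With those of replicate 2, sys-1, vang-1, lit-1 and cam-1 had one, and lin-17 did not.

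**Figure D5:**
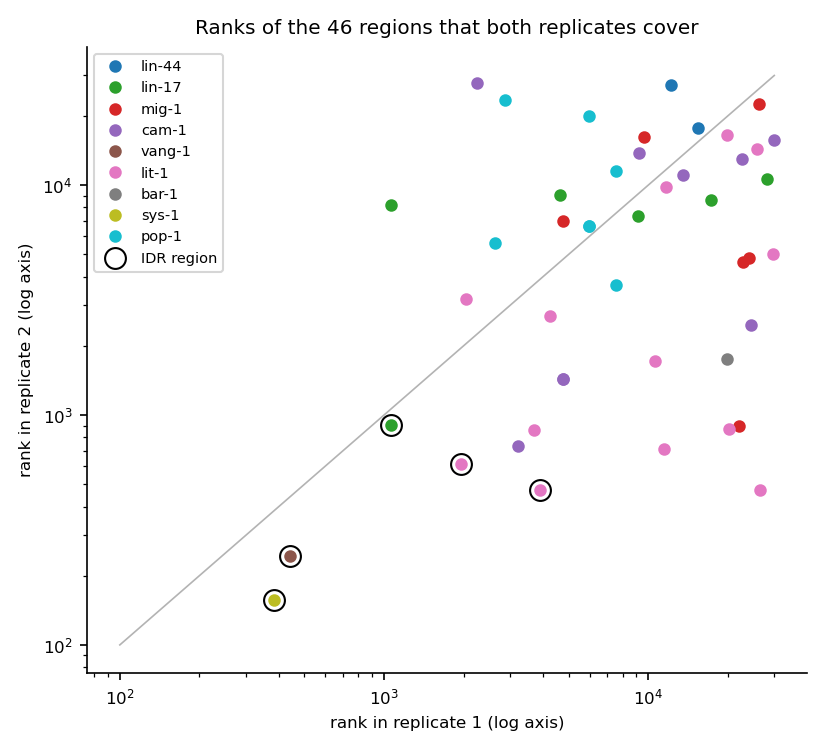
Rank in replicate 2 against rank in replicate 1 (both log axes) for the 46 regions covered by both replicates, coloured by gene, with the line of equal ranks and the 5 IDR regions ringed. The IDR regions all lie below the line, and 31 of the 46 points do so.

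Sequence motifs were looked for on both strands within 100 bp of each summit. The POU octamer ATGCAAAT was in 7 of the 81 regions (8.64%), against 1.84% of all pooled regions and 2.02% of the IDR regions. Within 50 bp of the summit the count was 3, against 0.890% of all. None of these 7 was an IDR region. With only 5 IDR regions at these genes, and the octamer in 2.02% of the IDR set, this absence says little. The gene lin-17 had 4 of them, with ranks of 5294, 7094, 10776 and 15256. The others lay at pop-1 (rank 4029), lit-1 (22654) and sys-1 (28371), and 4 of the 7 were covered by both replicates. At lin-17 the octamer regions include the one at the start of the gene, with its summit at 194 bp in exon 1, and one at an internal start at -158 bp.

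Counted the other way, by octamers rather than regions and chosen after the data were seen, the 10 windows held 17 octamers, 6 of them at lin-17 and 3 at egl-20. The density was 1.26 per 10 kb, against 0.914 over the nuclear genome. Of the 17, 7 (41.2%) lay within 100 bp of a pooled summit, where 12.1% of the bases of these windows lie. Of these 7, 4 were at lin-17 and 1 each at lit-1, sys-1 and pop-1, so the share rests largely on 1 gene. Over the nuclear genome 6.19% of octamers did, beside 6.01% of bases. The 3 octamers at egl-20 had no pooled region near them, which follows from the lack of any pooled region in its window.

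The TCF sites CTTTGAT and CTTTGTT were in 4 regions (4.94%, against 6.27% of all) and the SOX half-site ACAATG in 8 (9.88%, against 11.1%). The GATA site TGATAAG was in 4 (4.94%, against 2.77%). The repeats GAGAGAGA, in 6 regions (7.41%, against 3.67%), and CACACACA, in 7 (8.64%, against 3.22%), were at shares close to those of the IDR set, 8.10% and 9.99%. The GAGA repeat was at the sys-1 IDR region and at the cam-1 region of rank 978, whose sequence is printed above, and the CA repeat at the lit-1 regions of rank 1012 and 1368. The other 4 IDR regions held none of the 6 motifs. The GC content of the 5 IDR regions ran from 42.3% to 63.7%, with the highest at the lit-1 region of rank 691, beside medians of 48.3% over the IDR set and 41.8% over all pooled regions.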

How the data were processed

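CEH-6 tagged with eGFP was profiled by ChIP-seq in late C. elegans embryos, with 2 biological replicates of 1 group. The authors deposited 4 region lists on ce11, per the labels and file headers: one for each replicate, one for the pooled reads and one of peaks passing the irreproducible discovery rate procedure. The value used is the signal the authors deposited for each region (column 7), relative to 1 control. No aligner, peak caller or signal scale is named in the sources used here. The lists hold no read counts, so depth is unknown.

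Genes came from Ensembl release 115 for WBcel235, another name of ce11, and every region end lay inside its chromosomes. Windows ran from 5000 bp upstream to the end of each gene. Exons and introns come from the transcript of longest span. Distances to genes of small RNAs used 100 bp. Counts are set beside the same over all nuclear protein-coding genes. Mitochondrial regions stayed in the ranks and were left out of gene and annotation class counts. Work was done in Python 3.11.15 with pandas 2.3.3, numpy 2.4.6 and scipy 1.17.1, and the window and matching steps were tested on simulated data. All 10 genes entered every result, though not each is named in every one, and of 35 list genes each with an IDR region is named. The members and lists were chosen with earlier results of these data known. Alternatives changed the window, the gene rule, the number of regions, the replicate, the overlap rule and the motif window.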

Additional observations from a re-analysis of the deposited data

How the results depend on the processing

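No paired analysis was possible because the study has 1 group. The 4 genes and 5 IDR regions became 2 genes and 3 regions with the gene alone as window, which drops sys-1 and vang-1. They became 2 genes and 2 regions with the first 370 regions, and with 1500 and 3000 the regions rose to 10 and 16 and the genes, with 3000, to 7. With 1 replicate left out and the first 741 regions of the other used, the genes ranged from 2 to 4 and the regions from 2 to 6, and all pooled regions, 81 with both, from 66 to 86. The share covered by both replicates, 56.8%, was 42.0% when replicate summits had to lie within 100 bp of the pooled summit. It was 55.6% under a reciprocal overlap of 50%. The shares of all pooled regions under these 2 rules were not computed. The octamer count of 7 was 3 within 50 bp and 9 within 200 bp of the summit. With 2000 bp upstream, the best ranks of sys-1, pop-1 and mig-1 became 4223, 4029 and 3871. Leaving out regions near small RNA genes kept 4 genes and 5 IDR regions. With no counts deposited, the limits set by depth are not known, and no setting gives an error between embryo cultures beyond these 2 replicates.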
